A study of Homo sapiens with 8 samples.

Results

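The genes described here encode the proteins that move membrane vesicles through the cell and release them at synapses. They were chosen by symbol: Rab, synaptotagmin, synapsin, syntaxin, STXBP, VAMP, SNAP, UNC13, SV2, complexin, RIM, RIM-binding and synaptogyrin genes, the clathrin adaptor (AP1 to AP4), VPS and SEC genes, and the COPI coat genes. Of 4945 genes with a listed N1-methyladenosine (m1A) position, 67 matched, with 154 of the 9962 listed positions. Since 3 positions are listed for a pair of matching genes, there were 157 records of 1 position in 1 gene. The synaptic class was also set by symbol. It takes the synaptotagmin, synapsin, UNC13, SV2, complexin, RIM, RIM-binding and synaptogyrin genes, RAB3A to RAB3D, and the release SNAREs with their binders. All other matching genes, SNAP91 among them, formed the general trafficking class. The synaptic class held 16 genes with 45 records, and the general trafficking class held 51 genes with 112 records.

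The study silenced TRMT6 in human neuroblastoma cells, named SK-N-AS in the cell line field and SK-N-BE in the sample titles. A control group and a group given small interfering RNA against TRMT6 (siTRMT6) were each labelled as 2 input and 2 m1A immunoprecipitated libraries of polyadenylated RNA. The 4 count columns name the condition and a number, not input or m1A, and were taken as m1A reads because the table lists m1A sites. The labels do not say whether replicates were separate cultures, so the p-values measure only the spread between these libraries.

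Transport vesicles bud from one membrane under coats such as COPI, COPII and clathrin with its adaptors. Rab GTPases direct them to a target, tethers hold them there, and SNARE proteins fuse the membranes. Neurons use the same scheme for transmitter release, with synaptotagmins as calcium sensors, complexins as clamps and UNC13 and RIM proteins to prepare vesicles. TRMT6 pairs with the catalytic subunit TRMT61A to methylate adenosine in tRNA and some mRNAs, and m1A itself can only lie on an adenosine.

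The base at a listed position could be read where the position fell inside a RefSeq promoter window (GRCh38.p14, 300 bases around a gene's start). That held for 511 of the 9962 positions and for 2 of the 157 trafficking records, so these 2 are shown. RAB29, a Rab of the lysosome and Golgi, had its position at chr1:205775452 in the 5' UTR, and SNAP91, a clathrin assembly protein of synaptic vesicles, had its position at chr6:83709166 in the 5' UTR. Both genes lie on the minus strand, and each line gives 21 bases 5′ to 3′ in the sense of the transcript, with the listed base in capitals.

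RAB29: acgtgacgctTgcggaggaag

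SNAP91: tcgtccgggtTtgtccgccgc

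In both genes the listed base was a T (U in RNA) in the transcript and an A on the plus strand of the genome. RAB29 had 5 reads there in control 2 and none in the other libraries. SNAP91 had 8 reads in siTRMT6 1 and none in the other libraries. The A on the plus strand was shared by every position that could be read, all 511 of them. They gave 554 records by strand, since 43 positions are listed on both: 170 of 170 plus-strand records read A in the transcript and 384 of 384 minus-strand records read T. Neither window above held GTTCNA, the T-loop motif of the TRMT6-TRMT61A enzyme (searched on both strands), which 7 of the 519 complete windows (1.35%) held.

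Of the 157 trafficking records, 27 were on minus-strand transcripts, 12 in 7 synaptic genes (RAB3A, RIMBP2, RIMS3, SV2A, SYT5, UNC13A and VAMP2) and 15 in 11 general genes. The bases of the 155 records outside the windows are not analysed here. Whether the minus-strand records among them also lie on a U was not tested. In the general class, 33 of 84 plus-strand RefSeq coding genes had a listed position (39.3%, Wilson interval 29.5 to 49.98) against 9 of 79 on the minus strand (11.4%, 6.11 to 20.3). In the synaptic class the shares were 6 of 18 (33.3%, 16.3 to 56.3) and 7 of 20 (35%, 18.1 to 56.7). Over all coding genes they were 27.9% of 8085 and 15.5% of 7758. Coding genes without a strand in the RefSeq promoter table are left out of these shares. Of the synaptic genes with a listed position, 9 were on the plus strand, of which 6 entered the share, and 7 on the minus strand, all of which did. The synaptic shares therefore do not show that this class lacks a strand gap. By record, the plus strand held 73.3% of synaptic, 86.6% of general and 73.4% of all records.

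**Figure D1:**
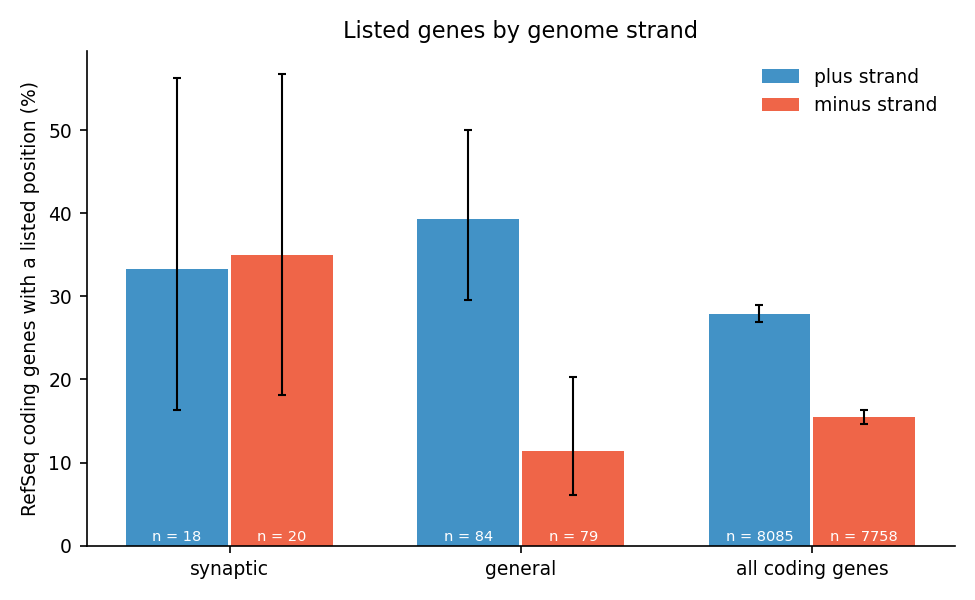
Share of RefSeq coding genes that have a listed position (y axis, percent), by genome strand, for the synaptic class, the general class and all coding genes. Bars give the share, error bars the 95% Wilson interval and n the genes. General trafficking genes on the plus strand were listed at 39.3% and those on the minus strand at 11.4%. The synaptic shares were 33.3% and 35%, but only 6 of the 9 listed plus-strand synaptic genes entered them, against 7 of 7 on the minus strand.

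The libraries differed in size. Summed over the table, the reads came to 8655 for control 1, 46007 for control 2, 40771 for siTRMT6 1 and 13812 for siTRMT6 2. These sums are not sequencing depth. TRMT6 had 0 listed positions, so its silencing could not be checked in these reads. Of the 157 trafficking records, 155 had reads in 1 library and 2 had reads in 2 libraries. None had reads in both conditions. A record had 5 to 38 reads with a median of 8, against a median of 9 over all records. The sources do not say if a deposited 0 stands for absent reads or an uncalled base.

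The synaptic genes began with the calcium sensors. SYT1, the main calcium sensor of fast transmitter release, had 8 positions, 4 with 30 reads in control 2 and 4 with 25 reads in siTRMT6 1. Its reads lay along the whole message on chromosome 12, from the 5' UTR (6 siTRMT6 1 reads at 78865108) through coding sequence to the 3' UTR (11 control 2 reads at 79449899 and 7 siTRMT6 1 reads at 79449960). SYT11, a synaptotagmin that does not bind calcium, had 6 positions, whose reads summed to 6 for control 1, 33 for control 2 and 14 for siTRMT6 1. SYT5 had a 5' UTR position at 55180150 of chromosome 19 with 10 control 2 reads, and coding positions at 55173644 and 55173611 with 7 siTRMT6 1 and 6 siTRMT6 2 reads. All 3 genes thus had reads in both conditions, and of their 17 records 8 were higher and 9 lower in the authors' deposited table.

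Among release SNAREs and their binders, CPLX2, a complexin that clamps the fusion machinery, had the most reads of any synaptic gene. Its control reads lay in the 5' UTR, 13 from control 1 at 175871517 and 5 from control 2 at 175809058 (chromosome 5). Its siTRMT6 reads lay in the 3' UTR, with 38 in siTRMT6 1 at 175882452 and 22 in siTRMT6 2 at 175881547. The gene took 0.150% of the listed reads of control 1, 0.0109% of control 2, 0.0932% of siTRMT6 1 and 0.159% of siTRMT6 2, so the conditions overlapped on this scale. The difference did not pass the threshold (edgeR with TMM factors, log2 1.63, adjusted p = 0.9998). VAMP2, the vesicle SNARE, had 8 reads in siTRMT6 1 in its 5' UTR (8162516 of chromosome 17) and 8 in its 3' UTR (8160973), and SNAP25, its partner on the plasma membrane, had 6 coding reads in control 2 at 10275499 of chromosome 20.

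Of the 7 priming and active zone genes, 5 had reads only in controls, 2 only in siTRMT6 and 0 in both. Reads in 1 condition alone were common: they held for 60.9% of all 4945 genes, and for 70.2% of the 4244 genes with 1 to 3 positions. UNC13A, which primes vesicles for release, had a 3' UTR base, 17603664 of chromosome 19, with 20 siTRMT6 1 and 12 siTRMT6 2 reads, and another at 17602522 with 12 siTRMT6 2 reads. It had none in either control, as was so for every trafficking base with siTRMT6 reads. Its relative UNC13B had reads in control 2 alone, 5 and 6 coding reads at 35310710 and 35381157 of chromosome 9. RIMS3, a short RIM scaffold protein, had 20 reads in control 2 at 40624981 of chromosome 1 (3' UTR). RIMS2, a scaffold of the active zone, had 18 reads in control 2 over 3 positions, and RIMBP2, which links RIM to calcium channels, had 12 in control 1 at 130442654 of chromosome 12. RAB3C had a coding base with 5 control 1 reads and another with 6 control 2 reads, while RAB3A, another Rab of synaptic vesicles, had 6 in siTRMT6 2. With 1 to 3 positions a gene, most from 1 library, these counts rest on few reads.

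The vesicle proteins had reads in both large libraries. SV2A, a glycoprotein of synaptic vesicles, carried 15 control 2 reads at base 149904188 of chromosome 1 and, 11 nt away in the same 3' UTR, 12 siTRMT6 1 reads at base 149904177. SYNGR1, a synaptogyrin, carried 9 control 2 reads at a coding base (39374497 of chromosome 22) and 8 siTRMT6 1 reads at a 3' UTR base (39383495). The smaller libraries, control 1 and siTRMT6 2, had no listed reads in either gene.

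**Figure D2:**
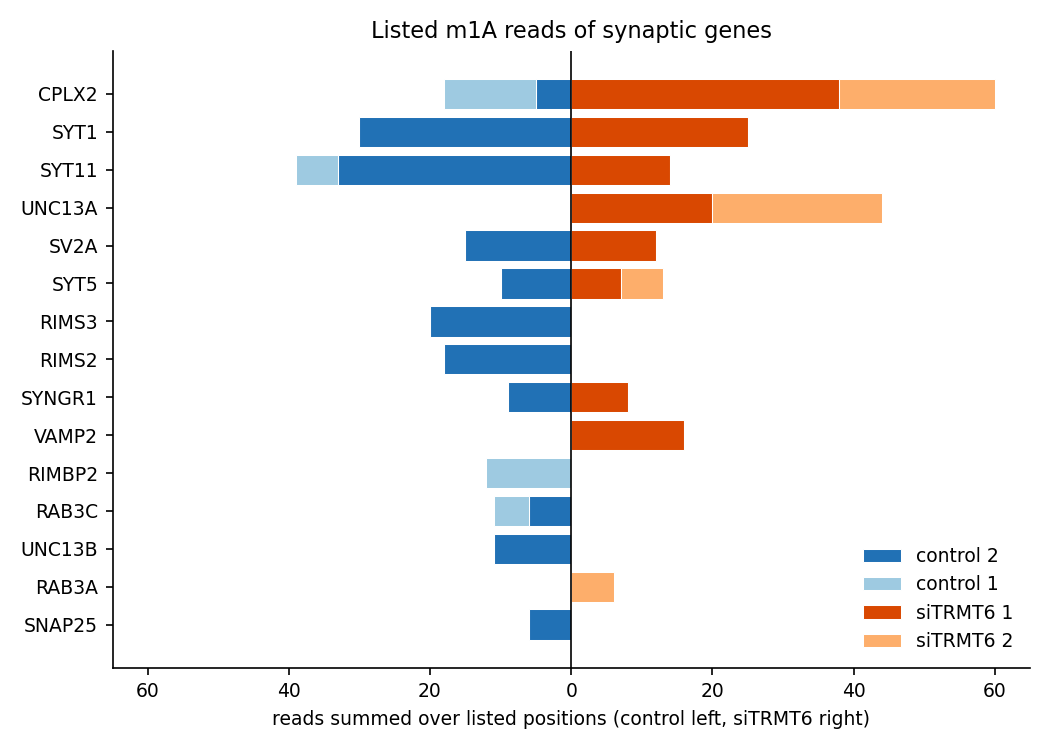
Reads summed over the listed positions of 15 synaptic genes (x axis), control libraries to the left of 0 and siTRMT6 libraries to the right, stacked by library. CPLX2 had 60 siTRMT6 reads against 18 control reads, UNC13A had 44 siTRMT6 reads and none in the controls, and SYT1 had 30 control and 25 siTRMT6 reads.

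In the general class, Rab GTPases and their regulators formed the largest group, with 18 genes and 37 records, 17 higher and 20 lower. RAB11B, a Rab of recycling endosomes, had 14 reads in control 2, 29 in siTRMT6 1 and 16 in siTRMT6 2, with 0 in control 1. In its coding sequence 15 siTRMT6 1 reads (8399994 of chromosome 19) and 8 siTRMT6 2 reads (8399979) lay 15 nt apart with no control reads nearby. RAB1B, which directs traffic from the endoplasmic reticulum to the Golgi, had 3 bases listed in its 3' UTR on chromosome 11: 66277366 with 16 control 1 reads, 66277384 with 18 control 2 reads, and 66277194 with 9 siTRMT6 2 reads. It was the only joined trafficking region with reads of both controls. RAB11FIP3, an effector of Rab11, summed to 10 control 1, 19 control 2 and 6 siTRMT6 1 reads. RAB35 and RAB7A, Rabs of recycling and of late endosomes, had 15 and 13 reads in control 2, 13 and 11 in siTRMT6 1, and 8 each in siTRMT6 2. RAB5B, an early endosome Rab, had 11 control 2 and 11 siTRMT6 1 reads.

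2 names in this group stand neither for the message of a single Rab gene nor for that of a Rab regulator. RAB4B-EGLN2 is a readthrough transcript whose 4 positions are all listed for EGLN2 too, and RAB30-AS1 is an antisense RNA. In all, 10 trafficking positions were also listed for a gene outside the name rule, the RAB1B and 2 of the VPS4A positions among them. Strand-specific counting is not stated, so reads of overlapping genes cannot be told apart. For 6 of the 67 genes (AP2B1, RAB11A, RAB5C, SEC14L1, VPS26B and VPS51) RefSeq lists a pseudogene under their name, and their reads are uncertain for that reason.

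The adaptor complexes select cargo into clathrin coats. AP2M1, the cargo-binding subunit of the endocytic adaptor AP2, had the most reads of all 67 genes: 64 in control 2 and 44 in siTRMT6 1, all in coding sequence. On chromosome 3, 22 control 2 reads at 184178930 lay 22 nt from 22 siTRMT6 1 reads at 184178952, and 23 control 2 reads at 184181199 lay 6 nt from 22 siTRMT6 1 reads at 184181193. Of the other AP2 subunits, AP2A1 had 17 siTRMT6 1 reads, AP2A2 had 21 control 2 and 10 siTRMT6 1 reads, and AP2B1 had 24 control 2 and 6 siTRMT6 2 reads. AP2S1 had no listed position. AP3D1, of the lysosomal adaptor AP3, had 29 reads, all in control 2. Of the group's 19 records, 7 were higher and 12 lower.

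The SEC genes serve the endoplasmic reticulum, as channel subunits or COPII coat proteins, apart from SEC14L1, a lipid-binding protein. SEC16A, which organises COPII exit sites, had the other position with reads in 2 libraries: 12 in siTRMT6 1 and 8 in siTRMT6 2 at 136476041 of chromosome 9, and none in the controls. Elsewhere in the same coding sequence, control 2 had 15 reads at 136477059. SEC16A is on the minus strand, as is UNC13A. Whether their positions with reads in 2 libraries lie on a U was not tested. SEC24C, a cargo receptor of COPII, had 5 reads in control 2 and 30 in siTRMT6 1, and SEC23B, its partner in the coat, had bases with 6 control 2 and 6 siTRMT6 1 reads 30 nt apart. SEC61A1, the pore of the translocon, had 26 reads over 3 positions, all in siTRMT6 1, while its partner SEC61B had 21 reads in control 2 and 6 in each siTRMT6 library. SEC14L1 had 11, 12 and 20 reads in control 2, siTRMT6 1 and siTRMT6 2. The group had 13 records higher and 10 lower.

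VPS genes sort cargo at endosomes. VPS26B, a retromer subunit, summed to 11 control 1, 15 control 2 and 38 siTRMT6 1 reads. VPS4A, the ATPase that recycles the ESCRT machinery, had 17 reads in control 2, 16 in siTRMT6 1 and 19 in siTRMT6 2; its 3' UTR held 16 siTRMT6 1 and 10 siTRMT6 2 reads 86 nt apart at 69324822 and 69324736 of chromosome 16. VPS39, of a lysosomal tether, had 9 reads, all in control 2. Of the other SNARE genes, STX16, a syntaxin of the trans-Golgi network, summed to 11 control 1, 12 control 2 and 8 siTRMT6 2 reads, the 11 and the 8 of which are also listed for its readthrough STX16-NPEPL1. SNAP29, a SNARE of autophagosome fusion, had 13 in control 2 and 7 in siTRMT6 1. STX6 had 8 control 2 reads and STX4 had 7 siTRMT6 1 reads. The COPI coat was listed through COPG1, with 26 control 2 reads, and COPZ1, with 9 control 2 and 8 siTRMT6 1 reads.

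**Figure D3:**
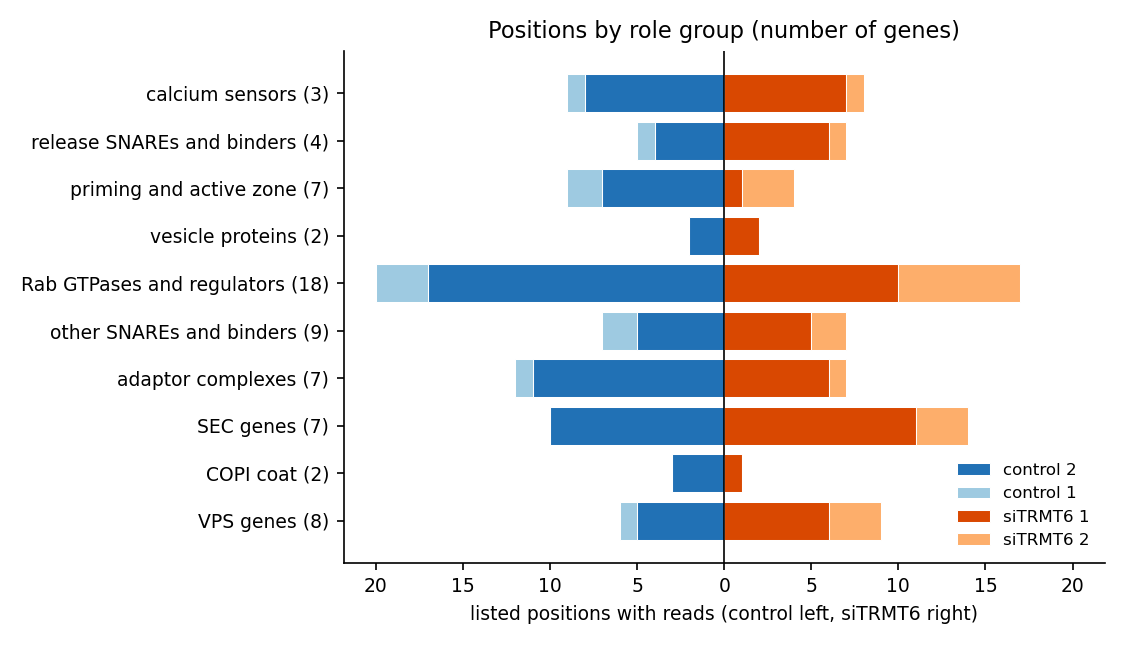
Listed positions with reads (x axis) in each role group, with the number of genes in brackets, control libraries to the left of 0 and siTRMT6 libraries to the right; a position with reads in 2 libraries counts in each. Rab genes had the most, with 20 in controls and 17 in siTRMT6, and the large libraries control 2 and siTRMT6 1 held most positions of nearly every group.

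All 157 records carried an adjusted p below 0.05 in the authors' deposited table, 74 higher and 83 lower in siTRMT6. The table holds no p above 0.0478, and it lists 49.6% of all positions as higher and 50.4% as lower at this threshold, so the trafficking counts lay near the background. In the synaptic class 20 of 45 records were higher (44.4%, Wilson interval 30.9 to 58.8) and in the general class 54 of 112 (48.2%, 39.2 to 57.4). Without control 2 the synaptic share was 83.3% and the general share 88.5%, and without siTRMT6 1 they were 16.7% and 21.6%, because each removes a large library of 1 direction. Of the 67 genes, 30 had records of both directions (44.8%, against 39.1% of all genes), and 28 had a single record (41.8%, against 49.0%). The deposited log2 value was the same for all records of 1 direction with the same summed reads, so the 157 records shared 35 distinct values.

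The classes were set against each other library by library. Synaptic positions took 0.416% of the listed reads of control 1 (36 reads, Wilson interval 0.301 to 0.575), 0.396% of control 2 (182 reads, 0.342 to 0.457), 0.400% of siTRMT6 1 (163 reads, 0.343 to 0.466) and 0.420% of siTRMT6 2 (58 reads, 0.325 to 0.542). The 4 values lay within each other's intervals. General positions took 0.693% of control 1 (0.539 to 0.891), 1.15% of control 2 (1.06 to 1.25), 0.964% of siTRMT6 1 (0.874 to 1.06) and 0.934% of siTRMT6 2 (0.787 to 1.11). The controls lay on both sides of the siTRMT6 libraries, so the conditions overlapped in this class. Intervals here cover counting error only, since reads of 1 base or gene are not independent.

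By transcript region, the 3' UTR share was above that of all listed positions. The 3' UTR held 18 of 45 synaptic records (40.0%, Wilson interval 27.0 to 54.5) and 36 of 112 general records (32.1%, 24.2 to 41.3), against 21.1% of all 10574 records (20.3 to 21.8). The 2 classes overlapped each other. The general 3' UTR records include the 4 of RAB4B-EGLN2 and the 3 of RAB1B, which are also listed for genes outside the name rule. Leaving them out would lower the general share, and the share without them was not computed. Without siTRMT6 2 the general share was 28.9% (20.8 to 38.6), whose interval meets that of all records, and without siTRMT6 1 the synaptic share was 36.7% with a lower bound of 21.9, next to it. Records of 1 gene are not independent, and the intervals do not allow for that. Coding sequence held 48.9% of synaptic, 55.4% of general and 61.7% of all records, and the 5' UTR 11.1%, 10.7% and 11.3%. Synaptic 3' UTR records had a median of 12 reads and coding ones 6; in the general class the medians were 11 and 8, and over all records 10 and 9. At the stricter adjusted p of 0.01 in the authors' deposited table, which keeps positions with more reads, 13 of 19 synaptic records (68.4%) and 25 of 56 general records (44.6%) lay in 3' UTRs, against 24.7% of all.

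The 3' UTR share was spread unevenly over libraries. Of the synaptic records with reads in a library, 0 of 4 lay in 3' UTRs in control 1, 8 of 21 in control 2, 8 of 16 in siTRMT6 1 and 3 of 5 in siTRMT6 2. In the general class they were 1 of 7, 16 of 51, 11 of 39 and 8 of 16. Both control 1 and siTRMT6 2 are small libraries and differed most, so condition and library cannot be told apart here. Summed over the class, 10 synaptic 3' UTR records were higher and 8 lower, and in the general class 19 were higher and 17 lower.

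**Figure D4:**
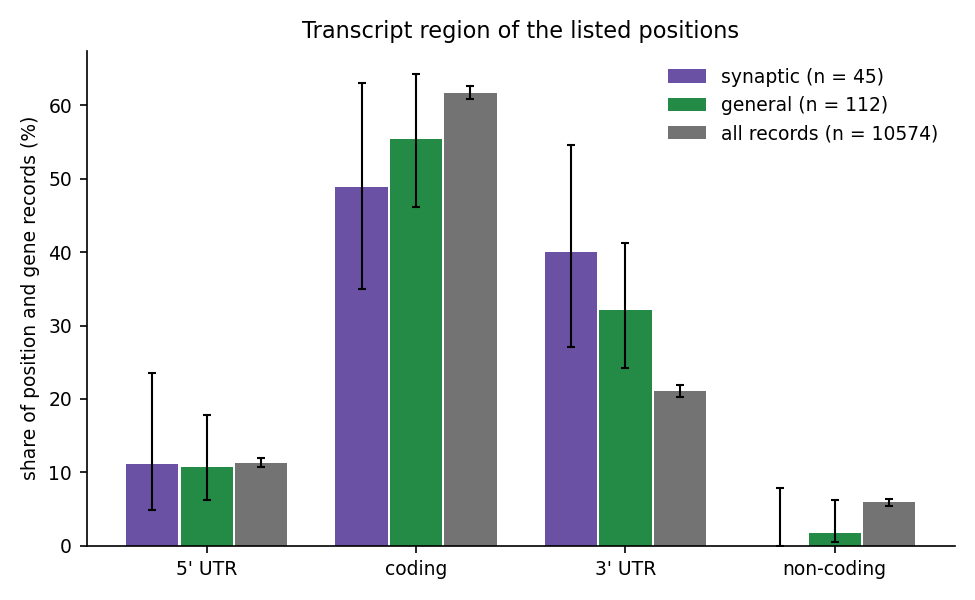
Share of position and gene records (y axis, percent) in each transcript region for the synaptic class, the general class and all records. Bars give the share and error bars the 95% Wilson interval. The 3' UTR held 40.0% of synaptic and 32.1% of general records against 21.1% of all.

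In a minority of regions, control and siTRMT6 reads lay side by side at different bases of the same message. Joining positions of 1 gene within 200 nt gave 124 trafficking regions, of which 26 held both conditions (21%, Wilson interval 14.7 to 29.0), against 17.3% of 8488 regions over all genes. There were 5 of 39 in the synaptic class (12.8%, 5.60 to 26.7) and 21 of 85 in the general class (24.7%, 16.8 to 34.8). The 26 cover 25 distinct regions, since STX16 and STX16-NPEPL1 share theirs. The nearest control and siTRMT6 bases lay 3 to 172 nt apart, within 30 nt in 16 of the 26. By record, 20.4% of trafficking records had a base of the opposite direction within 30 nt in the same gene, against 18.8% of all records. In 16 regions the reads came from control 2 and siTRMT6 1 alone. A control base and its nearest siTRMT6 base carried opposite signs in the authors' deposited table. This follows from each base having reads in 1 condition alone. In SV2A the control base had a log2 of -5.09 and the siTRMT6 base, 11 nt away, 4.40.

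Within such regions the reads of the conditions were mostly close. The log2 of siTRMT6 over control reads, each divided by the sum of listed reads in its condition, had a median of -0.13 over the 26 regions, against -0.15 over the 1470 of all genes. It was -0.32 for SV2A, 0.27 and -0.65 for the SYT1 regions, -0.58 for both SYT11 regions, and 0.00 and -0.06 for the AP2M1 regions. Of the 26, 2 differed by at least 2-fold on this scale (7.69%, against 6.26% of the 1470), RAB1B (34 control and 9 siTRMT6 reads, log2 -1.92) and the AP2B1 3' UTR (13 and 6 reads, log2 -1.11). RAB4B-EGLN2, with 14 and 7 reads, was 2-fold in reads and just short of it after scaling (log2 -0.998). The scale pools the libraries of a condition and does not allow for their unequal sizes. In the RAB1B, AP2B1 and RAB4B-EGLN2 regions the siTRMT6 reads came from siTRMT6 2 alone. For AP2B1 and RAB4B-EGLN2 the control reads came from control 2 alone. Listed reads summed to 46007 in control 2 and 13812 in siTRMT6 2, so condition and library cannot be told apart there. Regions entered this comparison only if both conditions had a listed base.

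**Figure D5:**
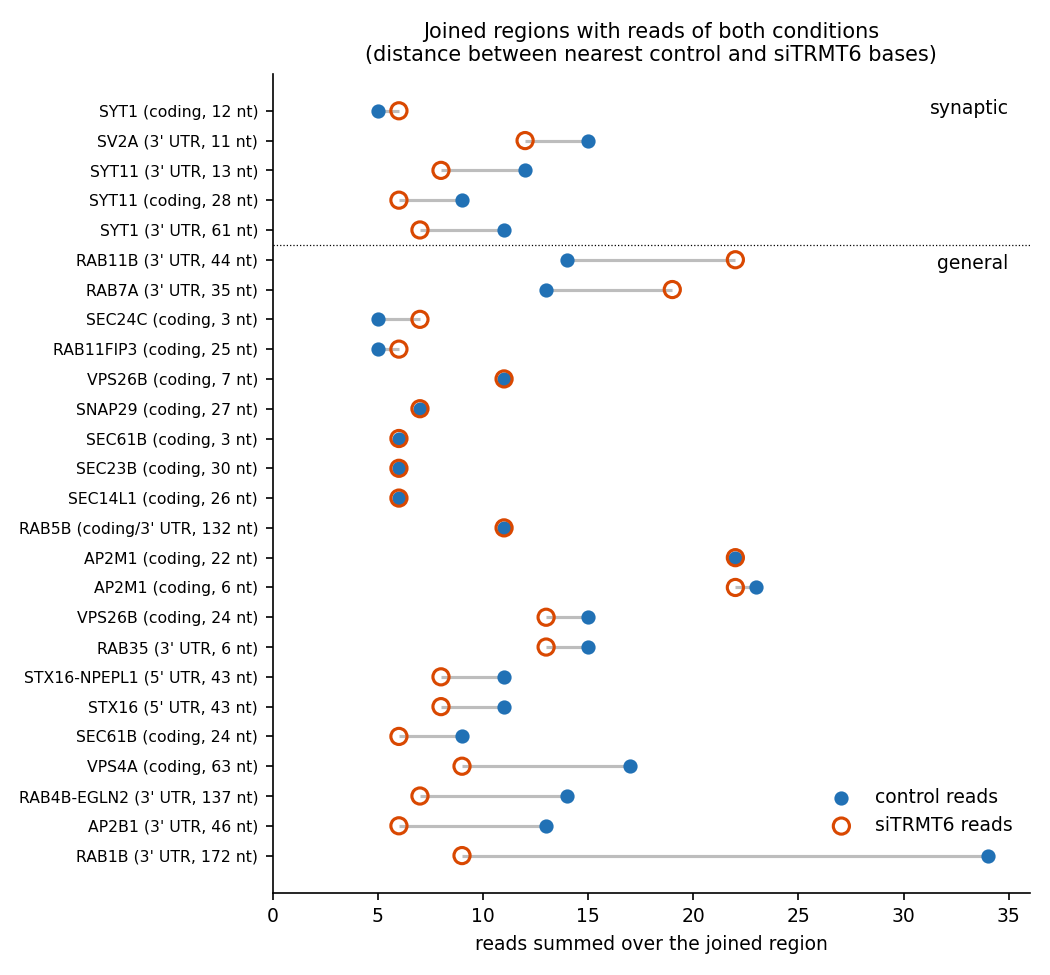
Reads (x axis) of the control (filled) and siTRMT6 (open) libraries in the 26 joined regions that held both, with the transcript region and the distance between the nearest bases of the conditions beside each gene. In 7 regions the counts were equal, and RAB1B stood apart with 34 control and 9 siTRMT6 reads; STX16 and STX16-NPEPL1 are the same bases listed for both genes.

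In the edgeR quasi-likelihood test of the 4 libraries, 34 positions had enough reads to be tested, of which 22 (64.7%) passed an adjusted p of 0.05. One trafficking position was among those tested, the shared UNC13A base described above, and it was called higher in siTRMT6 (adjusted p = 0.00592). It is on a minus-strand transcript, and whether it lies on a U was not tested. It passed the filter only through the siTRMT6 libraries, so it had to differ to be tested, and the call is given as a description. Against a floor of 3 counts over the controls, it was 10.7-fold higher, scaled by the sums of listed reads. That is a lower bound only if the controls truly had no reads at this base. The smallest control count of a trafficking record was 5, so unlisted reads could exceed the floor. The call held with library sizes in place of TMM factors (adjusted p = 0.0117) and with DESeq2 (0.0327). It was lost without the filter (0.519), with a replicate block (0.770), and without control 1 (0.612), control 2 (0.660) or siTRMT6 2 (0.607); without siTRMT6 1 the position did not pass the filter. SEC16A at 136476041, 6.68-fold higher against the same floor and with the same limit, did not pass the filter, since siTRMT6 1 had 12 reads and needed 14.9.

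Summed by gene, 16 of the 67 trafficking genes passed the filter and none of them was called; over all genes 0 of 975 (0%) were called by edgeR, 126 had an unadjusted p under 0.05, and DESeq2 called 1, no trafficking gene. UNC13A, which passed through its siTRMT6 reads alone, was the single trafficking gene with an unadjusted p under 0.05 (edgeR adjusted p = 0.386). By joined region, 9 trafficking regions were tested and none was called, with 0 of 525 (0%) over all genes, 131 at an unadjusted p under 0.05, and 1 called by DESeq2. The 3 trafficking regions with the lowest p-values had no control reads and entered the test only through the siTRMT6 libraries, so their p-values support no difference: UNC13A (20 and 12 reads, adjusted p = 0.0606), the 3' UTR of VPS4A (16 and 10, 0.0606) and the coding region of RAB11B (15 and 8, 0.0626). The other 6 had adjusted p-values of 0.9995.

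Other genes of the pathway were counted from a separate list of 89, with clathrin, dynamin, NSF, synaptophysin, tethers and ARF genes. Of these, 38 had a position, with 108 records, 51 higher and 57 lower in the authors' deposited table. Over all RefSeq coding genes 20.7% had a position, and 49.7% of all records were higher. The list was chosen with earlier results of these data known, so its share of listed genes was not tested. DNM2, a dynamin that cuts vesicles free, had 67 reads in control 2, 28 in siTRMT6 1 and 9 in siTRMT6 2 over 11 positions. SYP, the vesicle protein synaptophysin, had 26, 24 and 28 reads in control 2, siTRMT6 1 and siTRMT6 2. No gene of this list was called in the edgeR test of genes, which called 0 of 975 over all genes.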

How the data were processed

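Per the submitters' processing notes, FastQC 0.11.3, STAR and the build hg38 were used. For the position caller, counting rule and test, nothing is given in the sources used here. The deposited table gives, per the file headers, read counts for 4 libraries per position, the authors' log2 fold change, and their p-value and adjusted p-value. The largest deposited p was 0.0478. Positions are listed counting from 0 and are written here with 1 added; in the promoter windows 554 of 554 records then have A on the plus strand, against 40 without that step. The region of a record is that of its first listed transcript.

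Counts were tested with edgeR 4.0.16 in R 4.3.3 (TMM, filterByExpr with a minimum count of 10, quasi-likelihood test, Benjamini-Hochberg over all features), with siTRMT6 against control. DESeq2 1.42.0, library sizes, no filter, a replicate block, other joining distances and leaving out each library were alternatives. The edgeR test of genes was tried on simulated gene counts, with dispersions below the 2.60 estimated for genes here. Joining was checked on made-up positions. The tests of positions and joined regions were not simulated. Shares carry 95% Wilson intervals. Members and lists were chosen with earlier results of these data known. Of the 67 genes, 66 matched a RefSeq symbol. Named genes are the synaptic genes, general genes with reads in 2 libraries at 1 base or in a joined region of both conditions, the 3 with most reads in each role group, and any called. Input reads are not used here. Some genes that this rule or a list covers are not reported here.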

Additional observations from a re-analysis of the deposited data

How the results depend on the processing

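The number of positions called over the whole table was 22 (13 higher, 9 lower), 14 with library sizes in place of TMM factors (13 and 1) and 20 with DESeq2 (13 and 7). It was 0 without the filter and 0 with a replicate block. Leaving out each library gave 0 to 0 positions, genes and joined regions called. The median log2 of the 34 tested positions was -0.50, 0.24 without TMM factors and -1.14 with DESeq2. DESeq2 called 1 gene and 1 joined region where edgeR called 0; a narrower and a wider joining distance gave 0. The labels do not say that replicate numbers mark a shared culture or day, and same-numbered libraries had a correlation of deviations of -0.11 over 975 genes. A block with crossed numbers, chosen after seeing the data, called 0 positions, 1 gene and 0 regions. At the stricter adjusted p of 0.01, 68.4% of synaptic and 44.6% of general records lay in 3' UTRs. Leaving out each library, the synaptic share of higher records ran from 16.7% to 83.3% and the general share from 21.6% to 88.5%, and the 3' UTR shares from 36.7% to 43.9% and from 28.9% to 33.8%. The wider synaptic class, which also takes in SNAP91, and both region rules kept all shares within the intervals of the main values. Reads per position, mostly 5 to 20, limit what any single base can show.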

Other observations

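Strand and transcript region moved together in the whole table. Minus-strand transcripts held 26.6% of all 10574 records, but 60.9% of the 5' UTR records, 29.7% of the 3' UTR records and 17.6% of the coding records. In the synaptic class they held 6 of 18 records in 3' UTRs and 4 of 22 in coding sequence, and in the general class 6 of 36 and 5 of 62.

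In the promoter windows each library had A on the plus strand at every listed base with reads. In the transcript, 15 records of control 1, 67 of control 2, 70 of siTRMT6 1 and 19 of siTRMT6 2 read A, and 42, 154, 146 and 52 read T.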
